A study of Mus musculus with 6 samples.

Results

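Mast cells carry a small set of proteins that few other cells make: granule proteases, the receptor that binds immunoglobulin E, and the enzyme that makes histamine. Messenger RNA of 8 genes of this set, Cma1, Mcpt4, Tpsb2, Tpsab1, Cpa3, Fcer1a, Ms4a2 and Hdc, is described here in mouse ovaries. The genes were picked by name, with their measured values known, and found in each file by their NCBI Gene ID; they are 8 of 45679 gene symbols. Values are TPM, an abundance scaled for transcript length and library size. Of the 8 genes, 6 reached 1 TPM in at least 2 libraries and entered the fit across all genes, and Fcer1a and Ms4a2 did not.

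The animals were wild-type BDF1 mice, a hybrid laboratory strain. Ovaries were taken from mice of 65 weeks given MIT-001, from mice of 65 weeks given PBS, and from mice of 8 weeks given PBS, with 2 libraries in each group. MIT-001 is a compound that scavenges reactive oxygen species in mitochondria, and it was injected into the abdomen at 0.5 mg/kg for 7 days. The labels do not say how many animals gave a library or whether animals were pooled, so every spread below is the spread between libraries.

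The libraries were similar in depth, with 6.34 to 7.14 gigabases of aligned sequence implied by the deposited values and 14317 to 16304 genes at 1 TPM or more. That depth is the most common ratio of mean read depth over a gene to its FPKM, an abundance scaled for length and sequencing. Only 31.2% to 33.7% of the genes used shared it. The median ratio of TPM to FPKM was 1.89 in replicate 1 of young PBS and 2.26 to 2.31 in the other libraries. The tissue label fitted the granulosa cell markers, whose 8 genes summed to 1870 to 6780 TPM. The age labels went against at least 3 marker lists, whose means are given on the log2(TPM + 1) scale. The 9 oocyte genes averaged 5.13 and 5.18 in the libraries labelled old PBS, against 4.62 and 1.99 in those labelled young PBS. The 9 plasma cell genes averaged 2.85 and 2.92 in the libraries labelled old PBS, against 5.67 and 4.59 in those labelled young PBS. The 8 granulosa genes averaged 7.79 and 8.24 in the libraries labelled old PBS, against 6.14 and 6.23 in those labelled young PBS. Oocytes and their follicles are lost with age and plasma cells tend to gather in aged tissue, so old and young below are the words of the labels only. Replicate 1 of young PBS and replicate 1 of old MIT-001 each stood apart from the other library of their group in the mast cell values.

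Mast cells arise from blood-forming precursors, settle in connective tissue and need the KIT receptor and its ligand to survive. In rodent ovaries they are known mainly from the hilum and medulla, around vessels. Their granules store chymases, tryptases and carboxypeptidase A with histamine on a matrix of serglycin and heparin, and immunoglobulin E bound to its high-affinity receptor triggers their release. Mouse connective-tissue mast cells are known for Mcpt4, Cma1, Tpsb2 and Cpa3, and mucosal mast cells for Mcpt1 and Mcpt2.

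GATA factors, chiefly GATA2 with GATA1, are known regulators of mast cell genes, so the promoter windows of these genes were read for their motif. RefSeq windows of assembly GRCm38.p6, from 250 bases before to 50 bases after a RefSeq transcript start, were at hand for 6 of the 8 genes. Tpsb2 and Tpsab1 had no entry. The start used for Hdc lies 5347 bases inside the span the files give for the gene, so its window is that of an internal start. The windows of 3 proteases that moved together are shown, with that of Hdc, which did not follow them. Each reads 5′ to 3′ on the strand of the gene, the minus strand of the chromosome for all 4, and capitals mark a GATA match. The windows lie at chr14:55944626-55944925 (Cma1), chr14:56062261-56062560 (Mcpt4), chr3:20242132-20242431 (Cpa3) and chr2:126618629-126618928 (Hdc).
Cma1: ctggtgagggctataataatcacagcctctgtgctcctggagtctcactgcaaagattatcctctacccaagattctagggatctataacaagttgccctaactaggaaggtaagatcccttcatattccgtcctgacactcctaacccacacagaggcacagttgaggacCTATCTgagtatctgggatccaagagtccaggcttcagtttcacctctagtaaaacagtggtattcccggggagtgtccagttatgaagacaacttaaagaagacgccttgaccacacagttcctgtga
Mcpt4: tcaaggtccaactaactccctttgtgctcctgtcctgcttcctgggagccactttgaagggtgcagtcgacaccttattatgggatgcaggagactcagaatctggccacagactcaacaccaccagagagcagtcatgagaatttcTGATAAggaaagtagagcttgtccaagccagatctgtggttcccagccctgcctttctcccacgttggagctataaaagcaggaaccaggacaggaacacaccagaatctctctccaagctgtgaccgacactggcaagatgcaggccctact
Cpa3: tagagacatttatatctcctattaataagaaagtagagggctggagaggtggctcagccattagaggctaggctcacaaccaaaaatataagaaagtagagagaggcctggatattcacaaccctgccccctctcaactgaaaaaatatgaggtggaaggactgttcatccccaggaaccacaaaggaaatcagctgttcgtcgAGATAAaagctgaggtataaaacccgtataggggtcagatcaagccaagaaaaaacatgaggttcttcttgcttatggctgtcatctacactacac
Hdc: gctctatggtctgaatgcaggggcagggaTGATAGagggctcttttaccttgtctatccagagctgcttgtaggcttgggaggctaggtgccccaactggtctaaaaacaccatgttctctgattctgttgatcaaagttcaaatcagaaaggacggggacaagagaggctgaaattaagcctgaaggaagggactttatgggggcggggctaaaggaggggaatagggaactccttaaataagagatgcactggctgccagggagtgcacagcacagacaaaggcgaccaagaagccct

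The motif was searched on both strands as AGATAA or AGATAG, and also as TGATAA or TGATAG, and 6 of 6 windows held it, against 29.8% of 32851 windows of the same length. Positions are those of the leftmost base of the match, counted from the start site of the window. The match lay at -79 in Cma1, as AGATAG on the opposite strand, at -103 in Mcpt4, at -46 in Cpa3 and at -221 in Hdc. Fcer1a held 1 match at -92, and Ms4a2 held 3, at -224, -37 and -11. The E-boxes bound by MITF, a transcription factor mast cells need, were searched as CACGTG and CACATG on both strands. They occurred in 1 of the 6 windows, that of Fcer1a at -208, against 20.4% of all windows. These are matches of letters, and binding was not measured here.

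**Figure D1:**
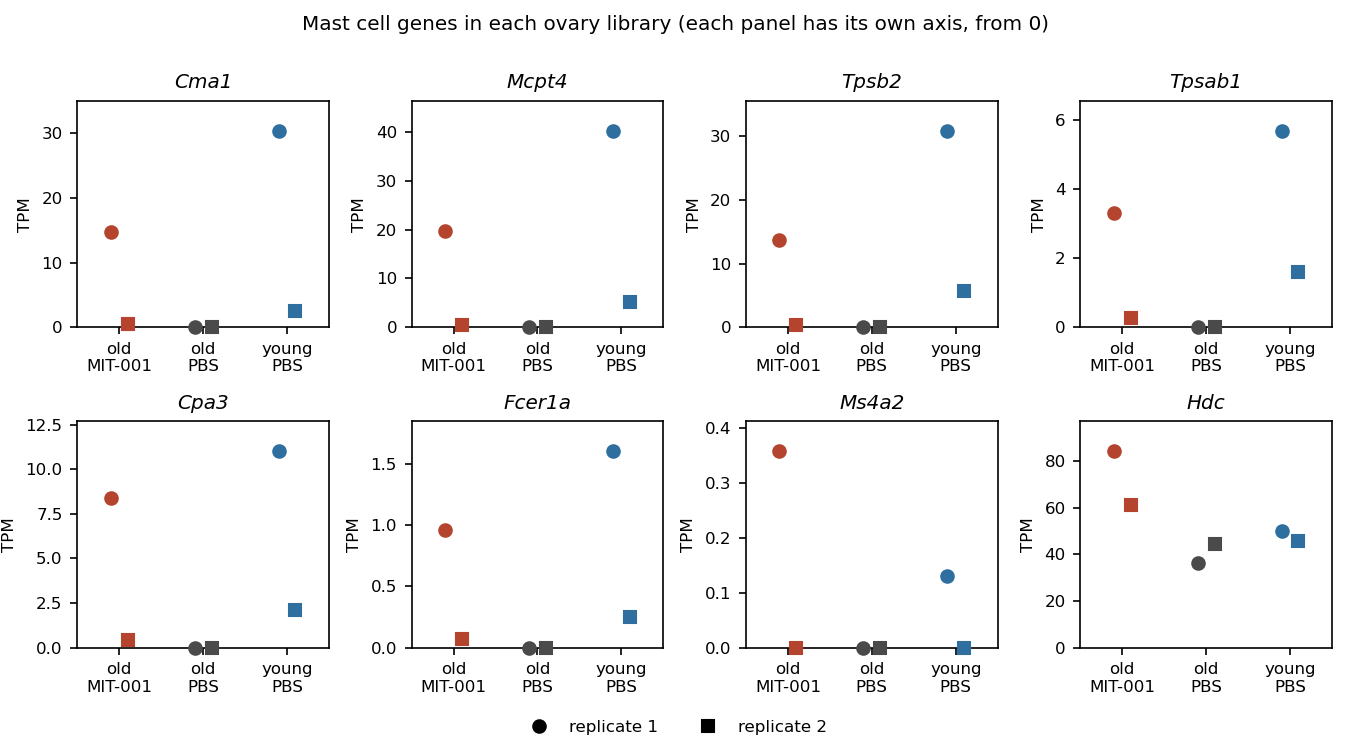
TPM of the 8 mast cell genes (vertical axes, each panel from 0 on its own scale) in the libraries of old MIT-001, old PBS and young PBS (horizontal axis), with a circle for replicate 1 and a square for replicate 2. Of the 8 genes, 7 sit at 0 in both old PBS libraries and are highest in replicate 1 of old MIT-001 or young PBS, whereas Hdc stays between 36.3 and 84.5 TPM.

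The main pattern was shared by 7 of the 8 genes. All but Hdc were listed at 0 TPM in both old PBS libraries, while replicate 1 of old MIT-001 and replicate 1 of young PBS held clear levels of the granule proteases and replicate 2 of each group held much less. Hdc was present in all 6 libraries and was highest in the old MIT-001 libraries. In whole ovaries, fewer mast cells and less RNA per mast cell cannot be told apart.

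Mcpt4, the main chymase of connective-tissue mast cells, was the most abundant of the proteases in the higher library of each group that had them. The gene (Gene ID 17227) lies on the minus strand at chr14:56059744-56062310 of mm10. Its level was 19.7 and 0.513 TPM in old MIT-001, 0 and 0 TPM in old PBS, and 40.3 and 5.14 TPM in young PBS. The ranges of old MIT-001 and young PBS overlapped, and both lay above old PBS. The mean depth over the gene was 59.6 and 1.42 reads per base in old MIT-001, 0 and 0 in old PBS, and 148 and 16.3 in young PBS, so the value of replicate 2 of old MIT-001 rests on few reads. Among genes above 0 TPM, Mcpt4 ranked 7675 of 25652 and 17218 of 24477 in the old MIT-001 libraries, and 3763 of 23899 and 10623 of 22281 in the young PBS libraries.

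Cma1, the other mast cell chymase gene (Gene ID 17228), lies on the same strand at chr14:55941451-55944675. It was at 14.8 and 0.510 TPM in old MIT-001, listed at 0 in both old PBS libraries, and at 30.4 and 2.56 TPM in young PBS. The order of the libraries was that of Mcpt4. The ratio of Mcpt4 to Cma1 TPM was 1.34 and 1.01 in old MIT-001 and 1.33 and 2.01 in young PBS. It thus varied less than the levels themselves. The lowest ratio, in replicate 2 of old MIT-001, rests on a mean depth of 1.42 (Mcpt4) and 1.41 (Cma1) reads per base.

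Tpsb2 encodes a mast cell tryptase (Gene ID 17229, plus strand, chr17:25366308-25368096). It was at 13.8 and 0.434 TPM in old MIT-001, listed at 0 in both old PBS libraries, and at 30.9 and 5.63 TPM in young PBS. Tpsab1, its neighbour (Gene ID 100503895, minus strand, chr17:25343245-25345562), was lower, at 3.31 and 0.259 TPM in old MIT-001, 0 and 0 TPM in old PBS, and 5.70 and 1.61 TPM in young PBS. RefSeq lists Tpsab1 as a transcribed pseudogene in the reference, which is of the C57BL/6J strain, and BDF1 mice carry other alleles as well, so its TPM gives transcript and not enzyme. The ratio of Tpsb2 to Tpsab1 TPM was 4.16 and 1.67 in old MIT-001 and 5.42 and 3.49 in young PBS. Tpsb2 exceeded Tpsab1 in each of these 4 libraries.

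Cpa3, the mast cell carboxypeptidase A (Gene ID 12873, minus strand, chr3:20215616-20242209), trims peptides after the chymases have cut them. It was at 8.38 and 0.439 TPM in old MIT-001, listed at 0 in both old PBS libraries, and at 11.0 and 2.13 TPM in young PBS. It is not part of either protease cluster, and it followed the same order of libraries. Cpa3 was the protease in which replicate 1 of old MIT-001 came closest to replicate 1 of young PBS, at 0.760 of its level, whereas the corresponding shares were 0.446 for Tpsb2, 0.487 for Cma1, 0.490 for Mcpt4 and 0.582 for Tpsab1.

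**Figure D2:**
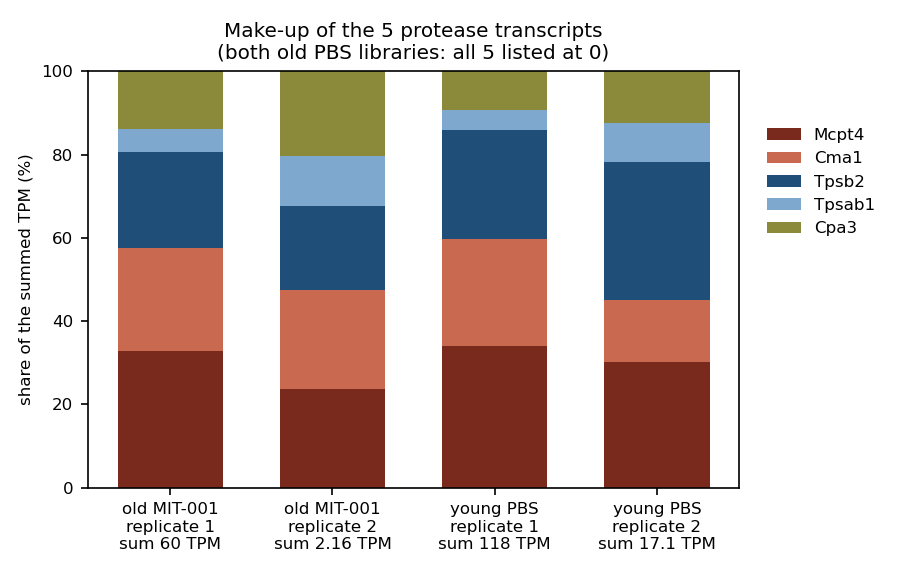
Share of each of 5 proteases in their summed TPM (vertical axis, percent) in the 4 libraries of old MIT-001 and young PBS (horizontal axis, with the sum under each bar); both old PBS libraries are left out because all 5 genes are listed at 0. The chymases Mcpt4 and Cma1 hold most of the sum in replicate 1 of both groups, and Tpsab1 and Cpa3 take larger shares in both libraries labelled replicate 2. The shares in replicate 2 of old MIT-001 rest on few reads.

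The summed TPM of these 5 proteases was 60.0 and 2.16 in old MIT-001, 0 and 0 in old PBS, and 118 and 17.1 in young PBS. Their make-up was steadier than their sum. Mcpt4 made up 32.9% and 23.8% of the sum in old MIT-001 and 34.1% and 30.1% in young PBS. Cma1 made up 24.6% and 23.7% in old MIT-001 and 25.7% and 15.0% in young PBS. Tpsb2 made up 23.0% and 20.1% in old MIT-001 and 26.1% and 33.0% in young PBS. Within each group the lower library had the larger share of the less abundant genes. In replicate 2 of old MIT-001 the mean depth was 0.718 (Tpsab1) to 1.42 (Mcpt4) reads per base, so its shares rest on few reads. Cpa3 made up 13.97% and 20.4% in old MIT-001 and 9.32% and 12.5% in young PBS, and Tpsab1 made up 5.52% and 12.0% in old MIT-001 and 4.82% and 9.44% in young PBS.

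The receptor for immunoglobulin E was read through the genes of its alpha and beta chains. Fcer1a, the chain that binds the antibody (Gene ID 14125, minus strand, chr1:173221269-173227232), was at 0.959 and 0.0710 TPM in old MIT-001, 0 and 0 TPM in old PBS, and 1.61 and 0.249 TPM in young PBS. It followed the proteases at a far lower level: Mcpt4 exceeded it by 20.6 and 7.22 times in old MIT-001 and by 25.0 and 20.7 times in young PBS. Ms4a2, the beta chain that amplifies the signal (Gene ID 14126, minus strand, chr19:11615517-11623790), was at 0.359 and 0 TPM in old MIT-001, 0 and 0 TPM in old PBS, and 0.131 and 0 TPM in young PBS. At such levels no order of groups can be read for Ms4a2, and it was the only one of the 8 genes whose groups overlapped in all 3 comparisons.

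Hdc, histidine decarboxylase, makes histamine and is also expressed by cells other than mast cells (Gene ID 15186, minus strand, chr2:126593659-126624025). It was at 84.5 and 61.4 TPM in old MIT-001, 36.3 and 44.6 TPM in old PBS, and 50.03 and 45.6 TPM in young PBS. Both old MIT-001 libraries lay above the other 4, and the higher old PBS library lay just under the lower young PBS library. The means were 73.0 ± 16.3 TPM in old MIT-001, 40.5 ± 5.86 TPM in old PBS and 47.8 ± 3.10 TPM in young PBS (SD, n = 2 each). On the log2(TPM + 1) scale the difference was 0.82 ± 0.24 (SE) for old MIT-001 against old PBS, 0.58 ± 0.24 for old MIT-001 set against young PBS and -0.24 ± 0.24 for old PBS against young PBS. Without replicate 1 of old MIT-001 the first of these was 0.60, and without replicate 2 it was 1.05. With the median of each library brought to the same value, the difference was 0.73 for old MIT-001 against old PBS, 0.17 between old MIT-001 and young PBS and -0.56 for old PBS against young PBS. These are descriptions without a test, since the gene was chosen with the values known.

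Hdc also parted from the proteases within groups. The ratio of Hdc to Mcpt4 TPM was 4.28 and 119.7 in old MIT-001 and 1.24 and 8.87 in young PBS, and in old PBS Hdc was present where Mcpt4 was listed at 0. Across the 6 libraries, which share their groups and processing, the Pearson correlation of log2(TPM + 1) with the mean of the other members was 0.516 for Hdc and 0.756 for Ms4a2. It was 0.974 for Fcer1a and between 0.987 and 0.999 for the 5 proteases.

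The spread between libraries of a group was wide for the proteases and narrow for Hdc. In old MIT-001, replicate 1 exceeded replicate 2 by 38.5 times for Mcpt4, 31.8 times for Tpsb2, 29.0 times for Cma1, 19.1 times for Cpa3, 13.5 times for Fcer1a and 12.8 times for Tpsab1, but by 1.38 times for Hdc. In young PBS the same ratios were 7.84 for Mcpt4, 5.48 for Tpsb2, 11.9 for Cma1, 5.18 for Cpa3, 6.47 for Fcer1a and 3.53 for Tpsab1, against 1.10 for Hdc. The labels do not say whether libraries of different groups with the same replicate number share more than that number.

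The fitted differences between old MIT-001 and young PBS show how far this spread limits the proteases. On the log2(TPM + 1) scale they were -1.66 ± 1.19 (SE) for Tpsb2, -1.51 ± 1.36 for Mcpt4, -1.11 ± 1.35 for Cma1, -0.84 ± 0.70 for Tpsab1 and -0.74 ± 0.99 for Cpa3. Without replicate 2 of old MIT-001 all 5 were positive, from 0.02 for Tpsb2 to 0.61 for Cpa3. Without replicate 1 of young PBS, Cma1 was at 0.46 and Cpa3 at 0.23, while Mcpt4, Tpsab1 and Tpsb2 were at -0.13, -0.16 and -0.53. No fold is given against old PBS for the genes listed at 0 there.

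Whether groups overlapped was counted next, beside the same count over all 16473 genes tested. Of the 8 genes, 7 were lower in both old PBS libraries than in both young PBS libraries, where 11.0% of all genes tested were lower and 38.1% higher without overlap. The same 7 were higher in both old MIT-001 libraries than in both old PBS libraries, where 27.2% of all genes were higher and 24.2% lower. Ms4a2 was the exception in both comparisons. The 7 were the 6 genes in the fit and Fcer1a, which was not among the genes tested. Fcer1a was at only 0.0710 TPM in replicate 2 of old MIT-001, against 0 in old PBS. The 5 proteases, listed at 0 in old PBS, passed the filter only through the groups where they are high. Between old MIT-001 and young PBS, Hdc alone did not overlap and was higher in old MIT-001, where 37.3% of all genes were higher and 6.56% lower. The genes were chosen from these comparisons, so their counts are a description.

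The fit across all genes used limma on log2(TPM + 1), with Benjamini-Hochberg adjustment and a threshold of 0.05. It called 6 genes for old PBS against young PBS, which is 0.0364% of those tested, with 2988 genes at an unadjusted p under 0.05. It called 3 genes for old MIT-001 against old PBS, which is 0.0182%, with 1946 at an unadjusted p under 0.05, and 0 genes between old MIT-001 and young PBS, with 2954 at an unadjusted p under 0.05. None of the 6 mast cell genes in the fit was called in any of the 3 comparisons. Nothing is read from that count, since the genes were chosen from these comparisons. Their median difference between old MIT-001 and young PBS was -0.98, where the median over all genes was 0.24, and it was 0.48 without replicate 2 of old MIT-001 and 0.05 without replicate 1 of young PBS. No median is read against old PBS, because 5 of the 6 genes are at 0 there and entered the fit only through the groups where they are high.

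The other genes listed at 0 in both old PBS libraries were looked up among the 16473 genes tested. There were 75 such genes, or 0.455%, including the 5 proteases. The filter itself makes zeros rare and the proteases passed it only through the other groups, so these shares are a description and say nothing of how unusual the pattern is. Of the 75, 47 were above 0 in each of the other 4 libraries, or 0.285% of genes tested. They comprised the 5 proteases, 31 immunoglobulin or T cell receptor segments, 1 clone name and 10 other named genes. The 10 were Fxyd4, Il6, H2-Q2, Retnla, Ear2, Mybpc1, Svs5, Evi2b, Tmem45b and Cytl1, and they hold the cytokine Il6 and Retnla, a product of alternatively activated macrophages.

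The genome around the chymases was read next, because relatives of Mcpt4 lie beside it and could share its reads. Cma1 and Mcpt4 are 115068 bases apart with 6 other genes between them. Mcpt1, a mucosal mast cell protease, was at 0 and 0 TPM in old MIT-001, 0.732 and 0 TPM in old PBS, and 0.241 and 0 TPM in young PBS. Mcpt2, Mcpt9 and Cma2 were listed at 0 in all 6 libraries, as was Mcpt8, a basophil protease on the far side of Mcpt4. The pseudogene Mcpt-ps1 appeared only in replicate 1 of old MIT-001, at 0.317 TPM. The predicted pseudogene Gm5801, which has another pattern, was at 8.63 and 8.42 TPM in old MIT-001, 3.44 and 0.382 TPM in old PBS, and 9.14 and 7.15 TPM in young PBS. The 7 granzyme genes of the locus stayed at or under 1.18 TPM.

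Sequence likeness bears on how reads were divided. In GENCODE transcripts, Mcpt4 was 85.16% identical to Mcpt1 over aligned bases, with a longest shared run of 46 bases, and 84.85% identical to Mcpt9, with a longest shared run of 56. It was 78.67% identical to Mcpt2, with a longest shared run of 33 bases, and 67.74% identical to Cma1, with a longest shared run of 27. Tpsb2 and Tpsab1 were 69.64% identical, with a longest shared run of 23 bases. Reads of Mcpt4 could thus be confused over short stretches with those of Mcpt1, Mcpt9 and Mcpt2, and their deposited levels are uncertain to that extent. Beside the tryptases, Tpsg1, a tryptase held on the membrane, was at 0.426 and 0 TPM in old MIT-001, 0 and 0 TPM in old PBS, and 0.529 and 0.0826 TPM in young PBS. The next gene, the calcium channel Cacna1h, did not follow the tryptases: it was at 18.3 and 13.9 TPM in old MIT-001, 32.7 and 17.9 TPM in old PBS, and 17.1 and 11.7 TPM in young PBS.

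A further 60 genes of mast cell and histamine biology, in 6 lists, were examined beside the 8. In the fit, 40 of the 60 could be tested. For old PBS against young PBS, 13 had a difference above 0 and 27 below it, with 0 called by limma and 13 at an unadjusted p under 0.05. For old MIT-001 against old PBS, 34 were above 0 and 6 below it, with 0 called and 14 at an unadjusted p under 0.05. For old MIT-001 against young PBS, 23 were above 0 and 17 below it, with 0 called and 8 at an unadjusted p under 0.05. Over all 16473 genes tested, 2988, 1946 and 2954 were at an unadjusted p under 0.05 in these comparisons, in the same order. The medians over all genes were 0.23, 0.03 and 0.24, so an even split around 0 is not the background. The lists were drawn up with earlier results of these libraries known, and the counts are a description.

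**Figure D3:**
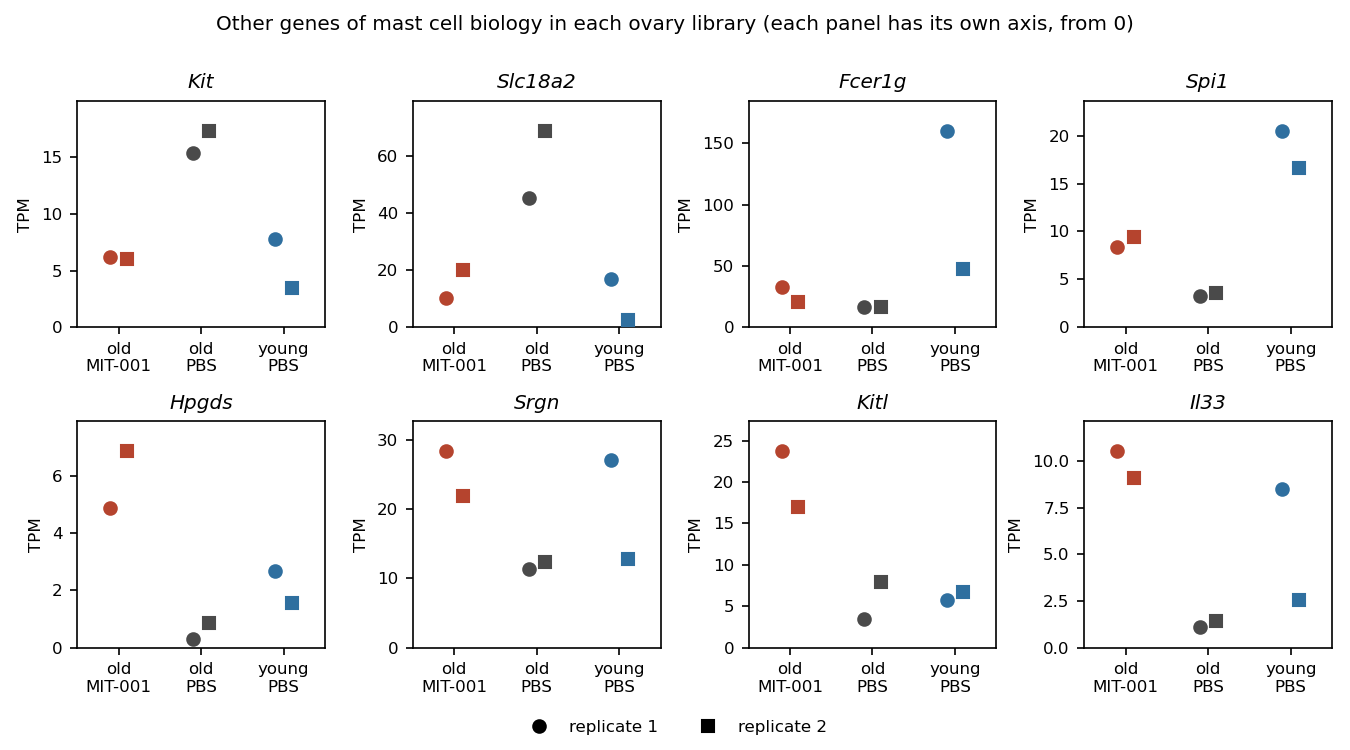
TPM of 8 other genes of mast cell biology (vertical axes, each panel from 0 on its own scale) in old MIT-001, old PBS and young PBS (horizontal axis), with a circle for replicate 1 and a square for replicate 2. Kit and Slc18a2 are highest in both old PBS libraries, and Spi1, Hpgds and Il33 are lowest there.

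Among the 14 surface receptor and signalling genes, 10 were tested and 0 called. Their median difference was -0.72 for old PBS against young PBS, 0.40 for old MIT-001 against old PBS and -0.26 between old MIT-001 and young PBS. Kit, the growth factor receptor mast cells depend on and also a receptor of oocytes, went against the proteases, with 6.21 and 5.998 TPM in old MIT-001, 15.4 and 17.3 TPM in old PBS, and 7.74 and 3.50 TPM in young PBS. Its log2 difference was 1.47 ± 0.37 (SE) for old PBS against young PBS (limma, adjusted p = 0.212) and -1.29 ± 0.37 for old MIT-001 against old PBS (limma, adjusted p = 0.271). The oocyte list moved alongside Kit, averaging 3.06 and 2.28 on the log2(TPM + 1) scale in old MIT-001, 5.13 and 5.18 in old PBS, and 4.62 and 1.99 in young PBS, and its part in the Kit values was not tested. Fcer1g, the gamma chain of the immunoglobulin E receptor, which macrophages also use for other Fc receptors, was at 33.1 and 20.2 TPM in old MIT-001, 16.2 and 16.9 TPM in old PBS, and 160.5 and 47.5 TPM in young PBS. It was above 0 in old PBS, where Fcer1a and Ms4a2 were listed at 0.

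The receptors Mrgprb2 and Il1rl1 were under 1 TPM in every library. Mrgprb2, the receptor for basic secretagogues on connective-tissue mast cells, was at 0.401 and 0.0702 TPM in old MIT-001, 0 and 0 TPM in old PBS, and 0.0930 and 0.0307 TPM in young PBS. Il1rl1, the receptor for interleukin 33, was at 0.517 and 0.330 TPM in old MIT-001, 0.184 and 0.197 TPM in old PBS, and 0.501 and 0.0658 TPM in young PBS. Neither passed the filter on low values.

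Of the 11 genes for the granule matrix and for making mediators, 10 were tested and 0 called. Their median difference was -0.67 for old PBS against young PBS, 0.65 for old MIT-001 against old PBS and 0.02 between old MIT-001 and young PBS. Srgn, the serglycin core protein that holds proteases in the granule and is shared with other blood cells, was at 28.4 and 21.8 TPM in old MIT-001, 11.4 and 12.3 TPM in old PBS, and 27.0 and 12.8 TPM in young PBS. Its log2 difference for old MIT-001 against old PBS was 1.01 ± 0.38 (SE; limma, adjusted p = 0.369). Hpgds, which makes prostaglandin D, was at 4.88 and 6.87 TPM in old MIT-001, 0.301 and 0.857 TPM in old PBS, and 2.66 and 1.55 TPM in young PBS. It differed between old MIT-001 and old PBS by 2.13 ± 0.37 on the log2(TPM + 1) scale (SE; limma, adjusted p = 0.120), the smallest adjusted p of the 60 genes in that comparison. Slc18a2, the vesicular carrier that loads histamine and serotonin, ran the other way, with 10.3 and 20.1 TPM in old MIT-001, 45.2 and 68.9 TPM in old PBS, and 16.97 and 2.68 TPM in young PBS.

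The 9 transcription factors were all tested and 0 were called. Their medians were near those of all genes, at 0.20 for old PBS against young PBS, 0.14 for old MIT-001 against old PBS and 0.19 between old MIT-001 and young PBS. Mitf was at 5.86 and 3.52 TPM in old MIT-001, 2.51 and 4.52 TPM in old PBS, and 1.95 and 1.37 TPM in young PBS. Gata2 was at 9.55 and 4.78 TPM in old MIT-001, 6.11 and 6.05 TPM in old PBS, and 5.21 and 6.55 TPM in young PBS, so the groups overlapped. Spi1, the PU.1 factor of myeloid cells, was at 8.43 and 9.41 TPM in old MIT-001, 3.25 and 3.54 TPM in old PBS, and 20.5 and 16.6 TPM in young PBS, with no overlap between any of the groups. Its log2 difference was -2.15 ± 0.27 (SE) for old PBS against young PBS (limma, adjusted p = 0.0915) and 1.17 ± 0.27 for old MIT-001 against old PBS (limma, adjusted p = 0.194). The macrophage list moved alongside Spi1, averaging 4.86 and 4.87 in old MIT-001, 3.64 and 3.91 in old PBS, and 5.48 and 5.71 in young PBS on the log2(TPM + 1) scale, and its part was not tested.

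Of the 11 growth and recruitment factors, 8 were tested and 0 called. Their median difference was -0.58 for old PBS against young PBS, 1.13 for old MIT-001 against old PBS and 0.18 between old MIT-001 and young PBS. Kitl, the KIT ligand, was at 23.8 and 16.9 TPM in old MIT-001, 3.44 and 7.89 TPM in old PBS, and 5.77 and 6.73 TPM in young PBS. Its log2 difference was 1.75 ± 0.40 (SE) for old MIT-001 against old PBS (limma, adjusted p = 0.200) and 1.54 ± 0.40 between old MIT-001 and young PBS (limma, adjusted p = 0.161). Il33, an alarm cytokine that activates mast cells, was at 10.6 and 9.07 TPM in old MIT-001, 1.13 and 1.45 TPM in old PBS, and 8.49 and 2.57 TPM in young PBS. Its log2 difference for old MIT-001 against old PBS was 2.24 ± 0.49 (SE; limma, adjusted p = 0.185). Ccl2, a chemokine for monocytes and mast cell precursors, was at 17.2 and 13.9 TPM in old MIT-001, 0.889 and 2.37 TPM in old PBS, and 41.3 and 4.39 TPM in young PBS. Il3 and Il9 were listed at 0 in all 6 libraries.

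Of these genes, 6 passed the threshold only when 1 or more libraries were left out. Without replicate 1 of young PBS, limma called Kit (adjusted p = 0.0392), Slc18a2 (adjusted p = 0.0367), Ltc4s, the synthase of leukotriene C (adjusted p = 0.0453), and Spi1 (adjusted p = 0.0392) for old PBS against young PBS, a setting that called 948 genes in all, or 5.75% of those tested, against 6 with every library. Over the 14 alternatives tried, the adjusted p of each of these ran up to 0.867. For old MIT-001 against old PBS, Il33 passed without replicate 1 of young PBS (adjusted p = 0.0376), without replicate 2 of young PBS (adjusted p = 0.0379) and with only the 4 libraries compared (adjusted p = 0.0387), and ran up to 0.829 over the 14 alternatives. Ccl2 passed under the same 3 settings (adjusted p = 0.0430, 0.0418 and 0.0435) and ran up to 0.962. Those settings called 358 genes (2.17%), 372 genes (2.26%) and 356 genes (2.16%), against 3 with every library.

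Of the 8 other protease genes, Ctsc, the cathepsin that activates granule proteases and works in many cells, was the only one tested. It was at 27.0 and 25.0 TPM in old MIT-001, 13.0 and 16.5 TPM in old PBS, and 22.1 and 19.4 TPM in young PBS. Of the 7 histamine genes, 2 were tested, and both break histamine down. Hnmt was at 15.6 and 15.7 TPM in old MIT-001, 6.48 and 13.2 TPM in old PBS, and 4.33 and 9.56 TPM in young PBS. Aoc1 was at 1.38 and 16.0 TPM in old MIT-001, 3.75 and 2.51 TPM in old PBS, and 1.61 and 2.40 TPM in young PBS, with replicate 2 of old MIT-001 standing alone. The histamine receptors Hrh1, Hrh2 and Hrh4 stayed at or under 0.334 TPM, and Hrh3 was listed at 0 in all 6 libraries.

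**Figure D4:**
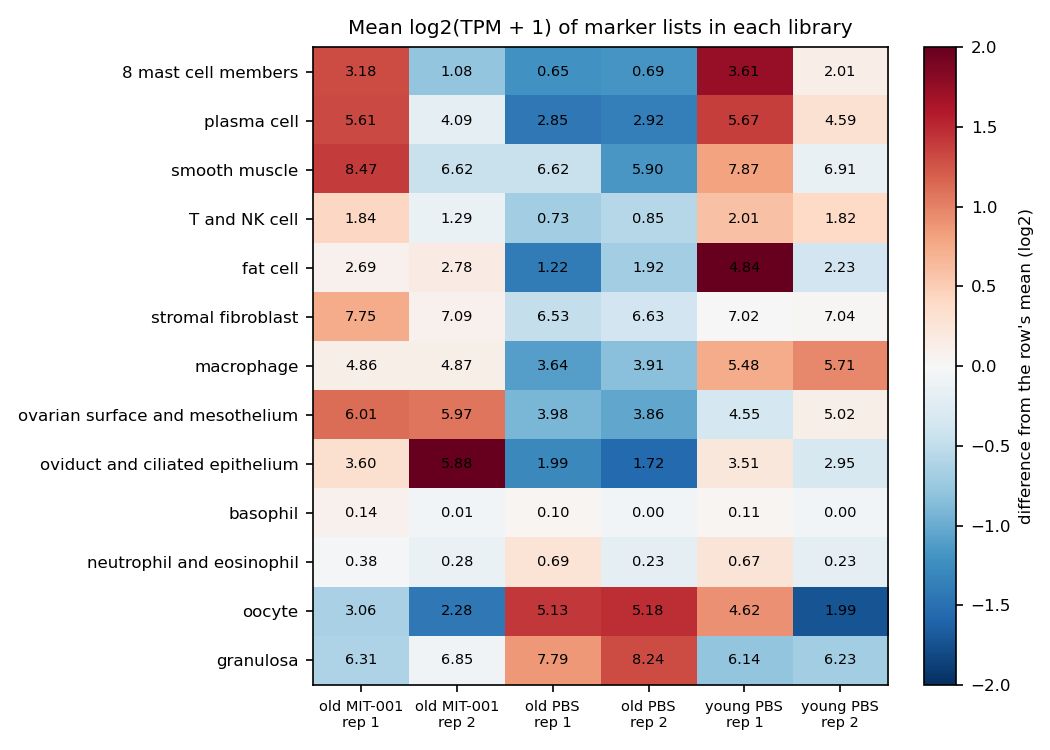
Mean log2(TPM + 1) of the 8 mast cell genes and of 12 marker lists of other cells (rows) in each library (columns), with the value printed in each cell and the colour giving the difference from the mean of the row. Plasma cell and smooth muscle genes are high in replicate 1 of old MIT-001 and of young PBS, like the mast cell genes, and oocyte and granulosa genes are highest in both old PBS libraries.

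Some markers of other cells moved with the mast cell genes and others did not. Plasma cell and smooth muscle genes were high in replicate 1 of old MIT-001 and of young PBS. The 7 dendritic cell genes, not shown in the figure, were also highest in those libraries. On the log2(TPM + 1) scale they averaged 1.42 and 1.08 in old MIT-001, 0.86 and 0.79 in old PBS, and 1.74 and 1.33 in young PBS. Oocyte and granulosa genes were highest in both old PBS libraries. Basophils share several mast cell genes, and their part in the mast cell values was not tested. Mcpt8 was listed at 0 throughout. Mcpt8, Prss34 and Cd200r3 together summed to 0.337 and 0.0212 TPM in old MIT-001, 0.228 and 0 TPM in old PBS, and 0.248 and 0 TPM in young PBS. The 9 plasma cell genes averaged 5.61 and 4.09 on the log2(TPM + 1) scale in old MIT-001, 2.85 and 2.92 in old PBS, and 5.67 and 4.59 in young PBS. Their sum was 1541 and 623 TPM in old MIT-001, 648 and 512 TPM in old PBS, and 1942 and 951 TPM in young PBS. In old PBS most of that sum was Sdc1, at 502 and 371 TPM, and Xbp1, at 125 and 116 TPM. The sum therefore does not follow the immunoglobulin genes. Igkc, the constant region of the kappa light chain, was at 887 and 73.8 TPM in old MIT-001, 9.50 and 10.6 TPM in old PBS, and 1340 and 174 TPM in young PBS. Its ratio to Mcpt4 was 44.9 and 143.8 in old MIT-001 and 33.2 and 33.9 in young PBS.

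The 6 smooth muscle genes averaged 8.47 and 6.62 in old MIT-001, 6.62 and 5.90 in old PBS, and 7.87 and 6.91 in young PBS. Their sum was 2637 and 928 TPM in old MIT-001, 976 and 611 TPM in old PBS, and 1869 and 854 TPM in young PBS. The 10 T and NK cell genes averaged 1.84 and 1.29 in old MIT-001, 0.73 and 0.85 in old PBS, and 2.01 and 1.82 in young PBS. The 7 fat cell genes, of which replicate 1 of young PBS had by far the most, averaged 2.69 and 2.78 in old MIT-001, 1.22 and 1.92 in old PBS, and 4.84 and 2.23 in young PBS. The 7 oviduct and ciliated epithelium genes averaged 3.60 and 5.88 in old MIT-001, 1.99 and 1.72 in old PBS, and 3.51 and 2.95 in young PBS. The granulosa list averaged 6.31 and 6.85 in old MIT-001, 7.79 and 8.24 in old PBS, and 6.14 and 6.23 in young PBS. The sources used here do not say how much surrounding tissue was taken with each ovary, and the part of these other cells in the mast cell values was not tested.

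**Figure D5:**
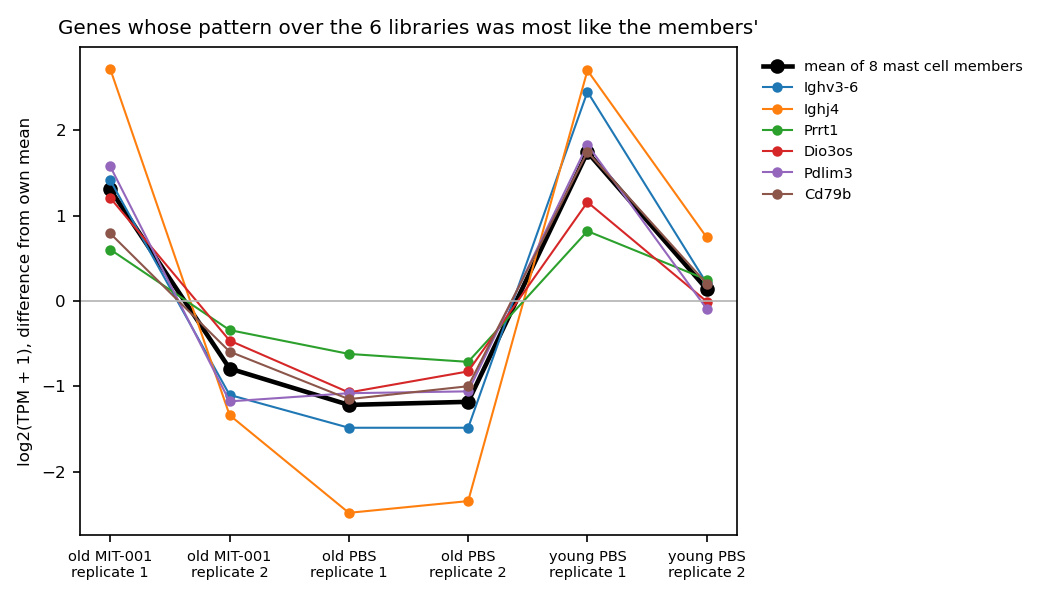
Difference of log2(TPM + 1) from its own mean over the 6 libraries (vertical axis) in each library (horizontal axis). Shown are the mean of the 8 mast cell genes (thick black line) and 6 other genes among those most like it. Clone names and pseudogenes were left out, and at most 2 immunoglobulin or T cell receptor segments were kept. The lines are high in replicate 1 of old MIT-001 and of young PBS and low in both old PBS libraries, with Pearson correlations from 0.984 to 0.995.

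Among 13487 other genes with at least 5 TPM in a library, the pattern most like that of the mast cell genes was sought by Pearson correlation with their mean log2(TPM + 1) over the 6 libraries. That mean was 3.18 and 1.08 in old MIT-001, 0.65 and 0.69 in old PBS, and 3.61 and 2.01 in young PBS. Clone names and pseudogenes were left out, and at most 2 immunoglobulin or T cell receptor segments were kept. The 6 genes then highest were Ighv3-6 (r = 0.995), Ighj4 (0.988), Prrt1 (0.987), Dio3os (0.986), Pdlim3 (0.985) and Cd79b (0.984). Ighv3-6, an immunoglobulin heavy chain segment, was at 6.45 and 0.306 TPM in old MIT-001, 0 and 0 TPM in old PBS, and 14.3 and 2.23 TPM in young PBS. Pdlim3, a muscle protein of actin filaments, was at 69.9 and 9.53 TPM in old MIT-001, 10.2 and 10.4 TPM in old PBS, and 83.6 and 21.3 TPM in young PBS. Cd79b, a chain of the B cell receptor, was at 6.09 and 1.72 TPM in old MIT-001, 0.847 and 1.05 TPM in old PBS, and 12.7 and 3.72 TPM in young PBS. With 6 libraries in 3 groups and 2 high libraries, many genes reach such correlations, so they are given as a description.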

How the data were processed

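Messenger RNA of 6 mouse ovary libraries was measured by sequencing, 2 in each of 3 groups. Extraction used TRIzol and library preparation a SMARTER mRNA-Seq kit, per the labels' protocols. The submitters' processing notes name Trimmomatic, HISAT2, StringTie and build mm10; the sources used here do not give versions, annotation or strand setting. TPM values, as deposited, are abundances scaled for length and library. FPKM values, as deposited, are fragments scaled for length and sequencing, and served as an alternative. Coverage, a signal the authors deposited, is mean read depth over a gene, and gave the depth per gene and the implied gigabases. No read counts were used, so count models and counting intervals were not applied, and a gene at 0 is given as listed at 0.

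Gene IDs were matched to symbols of RefSeq assembly GRCm38.p6 (45683 or 45684 rows per library; 98 unmatched rows held at most 0.0301% of TPM). Genes with at least 1 TPM in at least 2 libraries (16473) were fitted as log2(TPM + 1) in all 6 libraries with the intensity-trend option of limma 3.58.1 under R 4.3.3 (3 residual and 3.12 prior degrees of freedom), two-sided, with Benjamini-Hochberg adjustment over all genes. Fold changes on that scale understate changes of low genes. The fit was tested on simulated data.

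The members and lists were chosen with earlier results of these data known, so members carry no p-values. From each list, up to 4 genes with the smallest p were eligible to be named, narrowed after values were seen to those at an unadjusted p under 0.05. Other list genes given by their TPM (Mrgprb2, Il1rl1, Gata2, Aoc1, histamine and chymase relatives) and the 10 genes at 0 in old PBS were named after their values were seen. The most alike genes were ranked by Pearson correlation, without clone names and pseudogenes and with at most 2 immunoglobulin segments. Replicate numbers were compared through the correlation of library deviations. Alternatives were a pseudocount of 0.1, no filter or a filter of 5 TPM, FPKM, median centring, quantile normalization, the 4 libraries compared alone, a replicate block, and leaving out each library.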

Additional observations from a re-analysis of the deposited data

How the results depend on the processing

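Counts of genes called varied with the processing. For old PBS against young PBS, where limma called 6, the count was 1 without a filter, 15 with median centring, 17 with quantile normalization, 0 with only the 4 libraries compared and 1 with a replicate block; leaving out a library gave 0 to 948, with 948 without replicate 1 of young PBS and 14 without its replicate 2. For old MIT-001 against old PBS, where it called 3, the count was 0 without a filter, 1 with FPKM, 1 with median centring, 356 with only the 4 libraries compared and 0 with a replicate block; leaving out a library gave 0 to 372, with 358 without replicate 1 and 372 without replicate 2 of young PBS. Old MIT-001 against young PBS gave 0 throughout. The cause was not tested. The median difference of the 6 mast cell genes against old PBS is set by the added pseudocount, since 5 of them are at 0 there: it was -3.01 for old PBS against young PBS and 2.04 for old MIT-001 against old PBS, and -6.06 and 4.59 with a pseudocount of 0.1. Leaving out a library gave -4.28 to -1.74 for old PBS against young PBS, 0.56 to 3.56 for old MIT-001 against old PBS and -2.45 to 0.48 for old MIT-001 against young PBS. The values of 0 in old PBS fix the direction of the first 2 medians, which is therefore no sign of stability. Deviations of same-numbered libraries correlated at 0.175 between old MIT-001 and old PBS. The values were 0.239 between old MIT-001 and young PBS and 0.00656 between old PBS and young PBS. With 2 libraries in each group, these values cannot show whether same-numbered libraries share a batch, and the labels state none. Of the single genes with a test, 6 differences passed the threshold only under an alternative. Differences of single mast cell genes moved by more than their spread in 12 cases and stayed within it in 129 under other settings, and moved in 8 and stayed in 100 with a library left out. Medians of the 6 lists of other mast cell genes moved in 44 and stayed in 100 cases under other settings, and moved in 31 and stayed in 77 with a library left out. Many cases could not move. A library left out that lies outside a comparison, a fit of the 4 libraries alone and a replicate block leave every difference unchanged. So does a change of filter for a single gene. The spread is the SD between replicates, 1.89 for Cma1. Its difference between old MIT-001 and young PBS went from -1.11 to 0.58 without replicate 2 of old MIT-001 and counted as staying. The counts are no sign of stability. Depth limits Fcer1a, Ms4a2 and replicate 2 of old MIT-001 most.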
